A study of Solanum lycopersicum with 4 samples.

Results

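The B and C class set comprises 8 identifiers of the tomato annotation, the MADS-box transcription factors assigning petal, stamen, carpel and ovule identity in a flower. They were chosen from a list of recalled names and matched on the 14 characters of the identifier that precede its version number, and all 8 of 8 were found among the 34722 genes of the table. Each was then placed by whether it had no read in any library, was already read in vegetative meristems, or was read only in transitional ones. Expression had been measured by RNA sequencing in wild-type tomato (Solanum lycopersicum) shoot apical meristems, dissected from acetone-fixed seedlings grown for 2 to 12 days in a greenhouse. For the vegetative stage there were 2 libraries (replicates C and D) from wild-type meristems that had made 6 leaves. Transitional meristems, wild type as well and at floral transition, gave another 2 libraries (replicates A and B). The cultivar, and how many meristems went into a library, were not given in the sources used here. The labels name no mutation and no treatment other than fixation in either group.

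In the flower, B class proteins specify petals and stamens and C class proteins specify stamens and carpels, and C class proteins also end the activity of the floral meristem. B class proteins work as dimers of an APETALA3/DEFICIENS-type partner and a PISTILLATA/GLOBOSA-type partner, and these assemble with SEPALLATA-type MADS proteins into larger complexes. In Arabidopsis the genes are switched on after the flower meristem is specified, by the regulator LEAFY with its partner UFO for the B class and with WUSCHEL for the C class, while APETALA2 keeps the C class gene out of the outer organs.

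The 8 identifiers fall into 4 lineages of 2. TM6 (Solyc02g084630) and TAP3 (Solyc04g081000) are the APETALA3/DEFICIENS-type genes. Solyc08g067230 and Solyc06g059970 are the PISTILLATA/GLOBOSA-type genes. TAG1 (Solyc02g071730) and TAGL1 (Solyc07g055920) are the AGAMOUS-type C class genes, TAGL1 also being known for its part in fruit ripening. TAGL11 (Solyc11g028020) and MBP3 (Solyc06g064840) are of the AGL11 type, a sister lineage of the C class known for ovule and seed development. The file does not pair identifiers with names. Of the 8 names 7 were found among the symbols and synonyms of the RefSeq gene table of tomato, with DEF or AP3 also tried for TAP3 and AGL11 for TAGL11. Only the chromosome could be compared, and for 6 of these names the gene lies on the chromosome that the identifier's digits give. The exception is TPI, which RefSeq places on the chromosome of Solyc06g059970 although the member list gave that name to Solyc08g067230. Both PISTILLATA/GLOBOSA-type genes are therefore called by identifier here.

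The libraries held between 16141074 and 23043526 reads in genes, so that a gene with 0 reads could have stood at up to 0.186 CPM (reads per 1000000 reads in genes) in vegetative C and up to 0.130 to 0.137 CPM in the other 3 libraries (3 reads of the library's total, counting error only). Values are given below as normalised counts, the deposited unit, in which 1 read is worth 1.38 in vegetative C and 0.978 to 1.014 in the others, and in the order C, D for vegetative and A, B for transitional replicates. They are not divided by gene length and are compared between libraries, not between genes. The identifiers entered as the meristem genes WUS, TKN2, CLV3 and FAB were read in every library. Their summed level was 12810 to 13540 normalised counts in vegetative and 9853 to 10280 in transitional libraries. TKN2 made up 7953 to 8255 of that sum in vegetative and 6457 to 7267 in transitional libraries, and FAB most of the rest. At the transition CLV3, a signal that restricts the stem cells, fell (log2 change -0.97, SE 0.16, limma adjusted p = 0.0233), and so did FAB, its receptor (-0.73, SE 0.10, limma adjusted p = 0.00964). TKN2, which keeps meristem cells undetermined, and WUS, which maintains the stem cells, were not called, with log2 differences of -0.24 and 0.47. The part of these marker levels in the results below was not tested.

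No read was found in any of the 4 libraries for 4 of the 8 genes: TAP3, Solyc08g067230, TAGL1 and TAGL11. Over all genes of the table the share without a read was 30.8%. The other 4 genes, TM6, MBP3, TAG1 and Solyc06g059970, each had at least 1 read in a vegetative library, as did 65.6% of all genes. For the last 2 of these that was a single read, in vegetative D in both cases. No member was read for the first time in transitional libraries when a single read counts, a class that held 3.61% of all genes. When at least 3 reads in a library were asked for, TM6 and MBP3 were the members read in vegetative meristems, TAG1 was the member read only in transitional ones (a class of 2.61% of all genes), and 5 members counted as silent. Of the 3010 reads on the 8 genes, 98.7% fell on TM6 and MBP3. Since these are bulk samples, fewer cells reading a gene and less RNA per cell cannot be told apart.

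**Figure D1:**
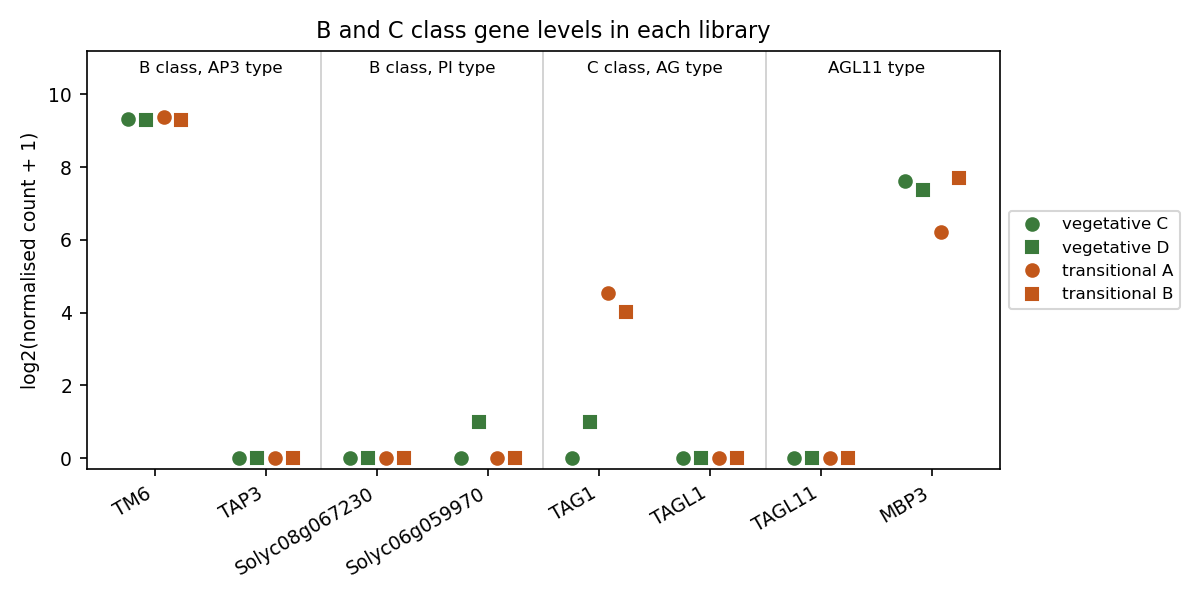
Level of each of the 8 genes as log2(normalised count + 1), 1 point per library; green marks vegetative replicates C and D, orange transitional replicates A and B, and grey lines divide the 4 lineages. TM6 sits at nearly the same height in all 4 libraries, MBP3 is lower in transitional A alone, TAG1 rises from at most 1 read, and the remaining 5 genes lie at 0 or at 1 read.

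The APETALA3/DEFICIENS-type genes stood at opposite ends. TM6, which in tomato contributes to stamen identity, had 639 and 633 normalised counts in the vegetative replicates and 668 and 624 in the transitional ones, on 463, 647, 659 and 617 reads. The stages overlapped, transitional A being the highest and transitional B the lowest of the 4 libraries. The log2 difference of transitional from vegetative meristems was 0.02 (SE 0.09, 95% confidence interval -0.19 to 0.23, limma adjusted p = 0.933, n = 2 per group), which corresponds to a fold of 1.02 with an interval of 0.877 to 1.18. A change beyond that interval was thus not seen, while a smaller one cannot be told from the spread between libraries. Against other genes of its level TM6 varied less than most. Among the 6485 tested genes with a mean within 2-fold of that of TM6, 91.8% differed at least as much between vegetative C and D, 60.0% differed at least as much between transitional A and B, and 11.6% changed as little or less between stages. By whole reads alone the ratio of transitional to vegetative levels was 1.02 (exact 95% counting interval 0.938 to 1.10).

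TAP3, the other APETALA3/DEFICIENS-type gene, whose loss turns petals into sepals and stamens into carpels, had 0 reads in all 4 libraries. Both of its potential partner genes were at or next to 0. Solyc08g067230 had no read in any library. Solyc06g059970 had 1 read, in vegetative D (0.978 normalised counts), and 0 reads in vegetative C and in both transitional libraries. With 1 read against 0 the direction of any difference was not detectable at this depth, and 1117 of the 34722 genes (3.22%) had exactly 1 read over the 4 libraries. TM6 was therefore read at both stages in libraries with at most 1 read on either PISTILLATA/GLOBOSA-type gene. Reads that the authors' counting could have split between near-identical copies would not be seen in these values, and how such reads were treated was not given in the sources used here.

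TAG1, the C class gene required for stamens and carpels, was the 1 member that rose. It had 0 and 0.978 normalised counts in the vegetative replicates (0 reads and 1 read) and 22.3 and 15.2 in the transitional ones (22 and 15 reads). Both transitional libraries stood above both vegetative ones, as in 25% of the tested genes. The transitional libraries did not differ from each other beyond counting error, with a wide interval (A to B ratio 1.47, exact 95% counting interval 0.728 to 3.05). The log2 change on the log2(normalised count + 1) scale was 3.79 (SE 0.69, 95% confidence interval 2.17 to 5.40, limma adjusted p = 0.0305, n = 2 per group), against 2.7% of 19607 tested genes called higher. The ratio of the normalised whole reads was 32.7, and its exact 95% counting interval, 5.52 to 1327, rests on the single vegetative read. TAG1 passed the filter on low values, a mean of at least 5 normalised counts, only through its transitional libraries.

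The call for TAG1 rested on few reads and lay near the threshold. With edgeR on the whole reads the adjusted p was 0.0294 (2.47% of genes called higher), and with DESeq2 it was 0.0643 (3.04%). It was 0.0556 with limma without transitional A and 0.0387 without transitional B, and 0.249 and 0.192 without vegetative C and D, where limma called 0 of all genes. Where 1 CPM in 2 libraries was asked for, TAG1 was not tested, since transitional A stood at 1.001 CPM and transitional B at 0.679 CPM. TAGL1, the other AGAMOUS-type gene, had 0 reads in all 4 libraries, and thus showed no such rise at this depth.

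**Figure D2:**
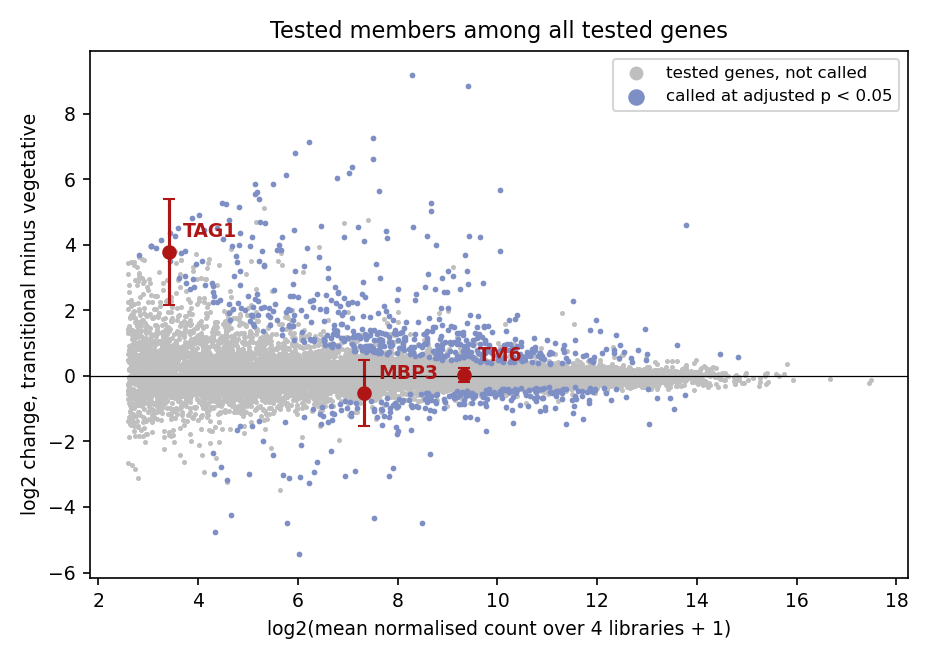
Log2 change from vegetative to transitional libraries against the log2 mean level for the 19607 tested genes (grey) and those called by limma (blue), with the 3 tested members in red and their 95% confidence intervals as bars. TM6 lies on the zero line at 0.02 with a short bar, MBP3 at -0.53 with a bar that crosses zero, and TAG1 at 3.79 among the lowest genes.

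The AGL11-type genes also divided into a silent and a read gene. TAGL11 had 0 reads in all 4 libraries. MBP3, a gene of ovule and seed development, had 195 and 163 normalised counts in the vegetative replicates and 73.0 and 207 in the transitional ones, on 141, 167, 72 and 205 reads. Transitional A was the lowest and transitional B the highest of the 4 libraries, with the vegetative libraries between them. The log2 difference between stages was -0.53 (SE 0.43, 95% confidence interval -1.53 to 0.47, limma adjusted p = 0.585, n = 2 per group) and was not called, with 1.19% of tested genes called lower. Its direction was set by transitional A. Without that library the log2 difference was 0.22 (limma adjusted p = 0.538), and without transitional B it was -1.28 and MBP3 was called lower (limma adjusted p = 0.0242), as were 2.21% of the tested genes in that fit.

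The difference between the transitional libraries was larger than read counting gives. MBP3 stood 2.84 times higher in transitional B than in A (exact 95% counting interval 2.16 to 3.77), whereas vegetative C and D differed by a ratio of 1.19 (0.945 to 1.499). Of 4200 tested genes with a mean within 2-fold of that of MBP3, 37 (0.881%) differed as much between transitional A and B. Those genes had a median absolute log2 difference of 0.19 between A and B, against 1.49 for MBP3. Markers of other tissue and of handling also differed between these libraries. All 6 leaf photosynthesis markers were higher in A than in B, with a summed level of 7707 against 3880 normalised counts and 4376 to 5668 in the vegetative libraries. A single leaf marker made up 5538 of that sum in A and 3458 in B. All 4 wound and jasmonate markers were higher in A too, with a sum of 8480 against 4851, and 1845 to 2031 in the vegetative libraries. Here a single marker made up 7762 in A and 4686 in B. Of all 34722 genes, 10701 of them without a read, 12475 were higher in A than in B. Between the stages limma called none of the 6 leaf markers and 1 of the 3 tested wound markers higher, with 2.7% of all tested genes called higher. DESeq2 called 2 wound markers higher, with 3.04% of genes called higher. Without transitional B, where MBP3 was called lower, limma called more markers of both lists higher. Of these markers PS and LAPA, both of the wound list, were at 0 in both vegetative libraries, and PS was also at 0 in transitional B. LAPA thus passed the filter only through its transitional libraries. The part of the leaf and wound markers in the level of MBP3 was not tested.

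**Figure D3:**
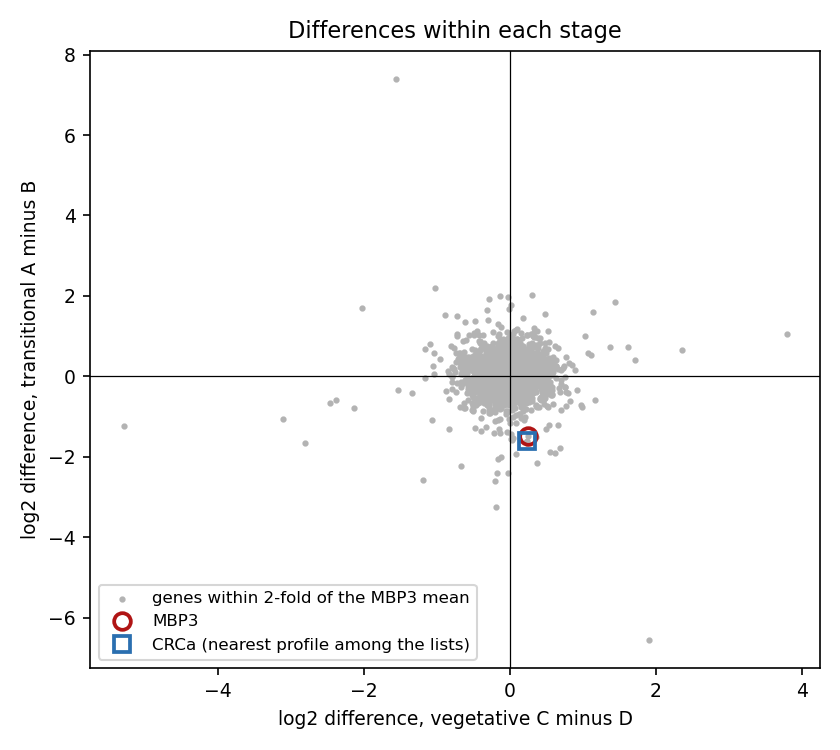
Differences between replicates for genes within 2-fold of the mean of MBP3, as the log2 difference of vegetative C from D (horizontal) and of transitional A from B (vertical), 1 grey point per gene. MBP3 (red circle) lies at -1.49 on the vertical axis and near the centre on the horizontal one, and the identifier entered as CRCa (blue square) lies beside it.

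Among 36 identifiers of other lists (flower meristem, SEPALLATA, FRUITFULL, AP2, YABBY, meristem, leaf and wound genes), the nearest profile was sought for each tested member by the Euclidean distance between centred log2(normalised count + 1) values over the 4 libraries. These names were recalled in the same way and not paired with identifiers by the file. For TM6 the nearest was the identifier entered as FA, the tomato LEAFY homologue, at a distance of 0.191. It stood at 4509 and 5088 normalised counts in the vegetative replicates, with 5603 and 5080 in the transitional ones. For TAG1 the nearest was the identifier entered as AGL6, a MADS-box gene of flower development, at a distance of 0.319. It had 0 and 1 read in vegetative and 19 and 18 reads in transitional libraries, and limma called it higher (log2 change 3.81, SE 0.67, limma adjusted p = 0.0272). Since AGL6 was picked for its likeness to TAG1, a change in the same direction follows from the choice. AGL6 too passed the filter only through its transitional libraries. For MBP3 the nearest was the identifier entered as CRCa, a YABBY gene whose Arabidopsis counterpart acts in carpels and nectaries, at a distance of 0.656. Its normalised counts were 186 and 157 in the vegetative replicates against 42.6 and 132 in the transitional ones, lowest in transitional A as MBP3 was. With 4 libraries such a likeness describes these samples and no more.

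Genes that act upstream of the B and C classes in Arabidopsis were read beside the members. The FA identifier was abundant at both stages and did not pass the test (log2 difference 0.16, SE 0.09, limma adjusted p = 0.455). The identifier entered as AN, the UFO homologue, had 0 and 2 reads in the vegetative replicates and 9 and 15 reads in the transitional ones. Both transitional values lay above both vegetative ones, as in 25% of the tested genes. The log2 difference of AN, 2.90, was not called (SE 0.79, limma adjusted p = 0.108), and AN passed the filter only through its transitional libraries. The WUS identifier stood at 235 and 203 normalised counts in vegetative and at 341 and 270 in transitional libraries. It was higher in both transitional libraries, again as in 25% of the tested genes, without passing the test (log2 difference 0.47, SE 0.16, limma adjusted p = 0.175). Of the 4 meristem markers it was the 1 with a positive difference. The identifier entered as MC, a MADS-box gene of sepal and inflorescence identity, rose from 138 and 9.78 normalised counts in the vegetative replicates to 2588 and 1525 in the transitional ones (log2 change 5.68, SE 1.001, limma adjusted p = 0.0273). That call was lost without any 1 of the 4 libraries (limma adjusted p = 0.0554 to 0.118).

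MADS-box genes whose proteins can join the B and C class proteins, and other flowering genes, were counted from lists. Of 7 SEPALLATA and AGL6 clade identifiers 6 were tested, of which 4 rose and none fell, with a median log2 change of 4.13. With DESeq2, and with the filter of 1 CPM in 2 libraries, 3 of them rose, and with scaling by library size 5 did. The untested one, entered as TM5, a SEPALLATA3-type gene, had 0 reads in both vegetative libraries and 1 and 2 reads in transitional A and B. All 4 FRUITFULL clade identifiers rose, with log2 changes of 1.10 to 4.27 (2 with edgeR, 3 with the filter of 1 CPM in 2 libraries and 3 with a pseudocount of 5). Without transitional A, too, not all 4 of them were called. Of 5 flower meristem identity genes 2 rose and none fell; 1 rose without transitional A, and 1 rose and 1 fell without transitional B. Of 3 AP2-class identifiers, a class whose Arabidopsis founder restrains the C class gene, 1 fell (2 without transitional B) and none rose, and all 3 had negative log2 differences (-0.51 to -1.12). Several of the SEPALLATA and AGL6 identifiers, and MBP10 of the FRUITFULL clade, which had 0 reads in both vegetative libraries and gave the log2 change of 4.27, passed the filter only through their transitional values, as TAG1 did. The counts of these lists are therefore descriptions. Of the 4 meristem markers 2 fell and none rose. Over all 19607 tested genes 2.7% were called higher and 1.19% lower, and the median log2 difference was 0.0052. The B and C class members had 1 of 3 tested genes higher and none lower, with a median of 0.02. Without a low filter, too, none of the members of these lists was called. Without either vegetative replicate limma called none of the members of these lists, as it called 0 genes in all, with 1577 (without C) and 1867 (without D) genes at an unadjusted p under 0.05.

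Genes of organs in which the members act were near silence or were not called. Of the 3 carpel and ovule YABBY identifiers, the one entered as INO, an ovule gene, had 1 read, in transitional B. The one entered as CRCb stood at 5.52 and 8.80 normalised counts in the vegetative replicates and at 15.2 and 29.3 in the transitional ones, and CRCa fell short of the threshold as well (limma adjusted p = 0.184 and 0.242). None of the 3 was called in either direction with all libraries, and CRCa was called lower without transitional B, as MBP3 was.

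**Figure D4:**
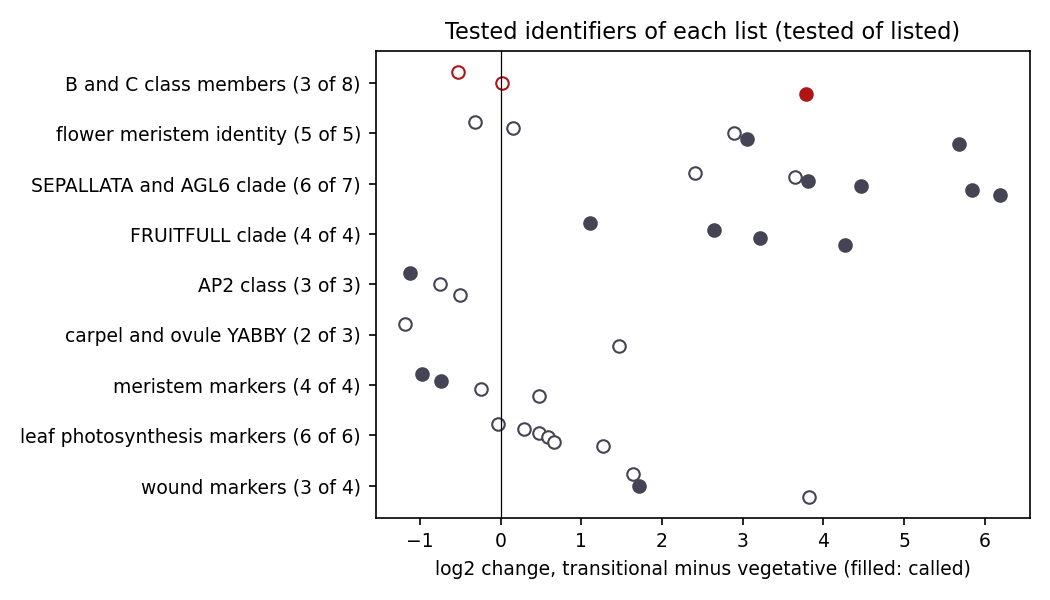
Log2 change from vegetative to transitional meristems (horizontal) for every tested identifier of each list, 1 point each, filled where limma called it; the labels give how many of the listed identifiers were tested. The B and C class members show 1 filled point, TAG1 at 3.79, and 2 open points, while all 4 FRUITFULL clade points are filled and to the right of zero.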

How the data were processed

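Per the submitters' processing notes the tools were TopHat2 2.0.10, HTSeq 0.6.1p1 and DESeq2 1.6.3, with no role or order given, and a genome build or annotation was not given in the sources used here. The deposited values are a normalised signal for every gene, with 1 column for each of the 4 libraries. In each library 100% of values were whole multiples of 1 step (relative tolerance 1e-06), so whole reads and size factors (0.725 for vegetative C, 1.02 for D, 0.987 for transitional A and 0.988 for B) were recovered. Replicate letters follow the titles; the descriptions give the vegetative libraries, here C and D, the letters A and B.

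The stages were compared with limma 3.58.1 (trend) in R 4.3.3 on log2(value + 1), over the 19607 genes whose mean reached 5 normalised counts. Group was the only term, and p-values were adjusted by Benjamini-Hochberg over all tested genes (threshold 0.05). On this scale the change of low genes is understated. Residual degrees of freedom were 2 and prior ones 5.18. Of the members 3 passed the filter, and 5 are given as values without a test. Whether replicates are separate sets of plants is not in the labels, so p-values reflect the spread between samples alone, possibly a technical one. Exact counting intervals (95%, Poisson for 1 library, conditional binomial for a ratio, SciPy 1.17.1 in Python 3.11.15) cover counting error only. The script was tested on simulated data in which only genes of a higher level than TAG1 were changed, so that test says nothing about the call for TAG1. How counting handled strand and overlapping genes was not given in the sources used here.

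Members and lists were chosen with earlier results of these data known. The genes named are the 8 members, the FA, AN, WUS, MC and TM5 identifiers and the nearest profile of each tested member; AGL6 and CRCa entered through the last of these, and INO, CRCb, PS, LAPA, CLV3, FAB, TKN2 and MBP10 were named after their values were seen. RefSeq names are from assembly SLM_r2.1, in which 0 identifiers of the table matched. Alternatives were edgeR 4.0.16 and DESeq2 1.42.0 on whole reads, 3 scalings, 2 filters, 2 pseudocounts (0.5 and 5), other read minimums and leaving out each library.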

Additional observations from a re-analysis of the deposited data

How the results depend on the processing

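The log2 change of TAG1 ranged from 2.10 to 5.04 over the settings that could test it. With 0 and 1 vegetative reads against 22 and 15 transitional ones, no setting could have turned its direction. TAG1 also passed the filter only through its transitional libraries. Its call was lost with DESeq2 (5.04, adjusted p = 0.0643) and without a low filter (3.79, adjusted p = 0.0877), and the filter of 1 CPM in 2 libraries left it untested, so each of these gave 0 members higher. Leaving out 1 library gave TAG1 log2 changes of 3.30 to 4.28 and 0 to 1 members higher and 0 to 1 lower. The sign of TM6 turned without transitional A (-0.027, against 0.016 to 0.071 without another library), and that of MBP3 did too (0.22, against -1.28 to -0.40), MBP3 being called without transitional B. With at least 3 reads in a library, or a read in both libraries of a group, 2 members were read in vegetative libraries and 1 only in transitional ones; a minimum of 3 reads summed over the group, added after the data were seen, gave the same 2 and 1. Without vegetative D those classes held 2 and 1, and without any other library 4 and 0. Over all genes, no filter left 6 called higher and 1 lower. Leaving out 1 library gave 0 to 776 higher and 0 to 478 lower. A lone library was assumed to vary like the other group. No paired analysis was possible because the titles share no replicate letter between the groups. At this depth the floor of 3 reads that a count of 0 allows lay at up to 0.186 CPM.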
